A study of Mus musculus with 6 samples.

Results

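Expression of 10 genes of the cardiac sarcomere was followed library by library in whole lungs of wild-type (WT) and ISM1-/- mice. The genes were picked by symbol from the deposited gene table as components of the contractile unit of heart muscle, with earlier results of these data known. All 10 of the 10 symbols had a row among the 54532 genes of the table, and all 10 passed the filter on low counts that left 18689 genes for testing. Total RNA came from perfused whole lungs of untreated mice at 2 months of age, with 3 WT and 3 ISM1-/- libraries. The WT animals were purchased C57BL/6J mice, whereas the ISM1-/- animals, which lack the secreted protein isthmin 1, were bred in-house on the same C57BL/6J background, so a difference of genotype and one of animal supplier cannot be told apart. The comparison asked how gene expression in the untreated lung differed between the genotypes. The labels number the replicates of each genotype without tying them to a named animal, so the p-values measure the spread between these libraries.

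The sarcomere is the repeating unit that shortens when striated muscle contracts. Myosin thick filaments pull on actin thin filaments, the troponin complex lets calcium switch the pull on and off, and a scaffold of titin and alpha-actinin holds the filaments in register. The lung is not a striated muscle organ, but in rodents sleeves of cardiac muscle continue from the left atrium along the pulmonary veins into the lung, and heart muscle can also stay attached to a lung when it is cut out. Among the genes followed here, *Myl4* and *Myl7* encode the myosin light chains of atrial muscle and *Myh6* the fast myosin heavy chain of adult mouse heart, while *Tnnt2*, *Tnni3* and *Tnnc1* encode the cardiac troponins.

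Total counts lay between 37606133 and 42345042 per library, and the factors that TMM scaling added were 0.985 to 1.005. Lung identity was checked with a list of 8 lung epithelium markers, whose CPM (counts relative to the TMM-scaled library total) summed to between 42147 and 44677 in WT and between 35063 and 37692 in ISM1-/-. Of these, the club cell gene *Scgb1a1* and the ciliated cell gene *Foxj1* fell, each with a log2 fold change of -0.51 and with adjusted p-values of 0.0270 and 0.0118 in edgeR, and among 4 mesothelial markers *Upk1b* rose, with a log2 fold change of 0.35 and an adjusted p of 0.0817. Their part in the values of the sarcomere genes was not tested. *Ism1* itself had 82.1, 77.4 and 76.9 CPM in WT replicates 1 to 3 and 65.4, 66.0 and 75.6 CPM in ISM1-/- replicates 1 to 3. The targeted transcript was thus still counted in every library labelled ISM1-/-, with a log2 fold change of -0.19 (SE 0.07, adjusted p = 0.217 by edgeR's quasi-likelihood test), and the part of the gene that was deleted is not given in the sources used here. It therefore does not check the labels, and every direction below rests on the libraries labelled ISM1-/-. One WT library stood apart for the sarcomere genes. WT replicate 1 held 0.159% of its counts in the 10 genes, against 0.0578% and 0.0681% in WT replicates 2 and 3 and 0.0319%, 0.0441% and 0.0608% in the ISM1-/- libraries. Values are therefore given with and without WT replicate 1.

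The promoters of 4 of the genes are shown first because they carry the letter patterns by which muscle promoters are usually recognised, in the gene that passed the test (*Myl7*), a gene that shares its CArG box (*Actc1*), the gene with the largest difference (*Mybpc3*) and a troponin gene (*Tnnt2*). Each is the 250 bases before the RefSeq transcription start on GRCm38.p6, written 5′ to 3′ on the gene's strand, and capitals mark the matches to the patterns described after them. All 10 genes had an entry in the RefSeq promoter table.
Myl7, chr11:5898783-5899032, minus strand: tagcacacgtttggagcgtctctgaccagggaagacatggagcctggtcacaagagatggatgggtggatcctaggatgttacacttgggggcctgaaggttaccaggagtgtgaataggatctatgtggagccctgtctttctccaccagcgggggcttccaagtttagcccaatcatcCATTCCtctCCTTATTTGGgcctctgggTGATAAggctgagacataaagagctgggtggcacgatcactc
Actc1, chr2:114052876-114053125, minus strand: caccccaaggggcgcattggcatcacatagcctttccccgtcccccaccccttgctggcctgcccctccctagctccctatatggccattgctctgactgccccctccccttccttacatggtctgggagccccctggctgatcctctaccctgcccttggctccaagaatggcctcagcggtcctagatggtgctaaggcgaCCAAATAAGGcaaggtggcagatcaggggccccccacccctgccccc
Mybpc3, chr2:91117894-91118143, plus strand: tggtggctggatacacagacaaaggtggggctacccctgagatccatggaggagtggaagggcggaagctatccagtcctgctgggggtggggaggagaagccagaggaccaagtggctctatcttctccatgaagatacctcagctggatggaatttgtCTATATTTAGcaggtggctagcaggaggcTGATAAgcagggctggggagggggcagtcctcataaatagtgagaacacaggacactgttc
Tnnt2, chr1:135836084-135836333, plus strand: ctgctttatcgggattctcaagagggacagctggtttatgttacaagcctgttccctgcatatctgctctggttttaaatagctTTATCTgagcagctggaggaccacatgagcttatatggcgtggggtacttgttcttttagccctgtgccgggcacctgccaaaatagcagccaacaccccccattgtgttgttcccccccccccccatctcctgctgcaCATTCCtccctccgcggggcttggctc
The *Actc1* window lies within the gene as listed on GRCm38, because the listed start belongs to a transcript that begins farther upstream, and it ends just inside the first exon of the longest coding transcript. The windows of *Myh6* and *Tnni3*, which are not printed, also lie within the listed gene, with RefSeq starts 320 and 1701 bases from the listed ones.

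*Myl7* carried 3 of the patterns within a short stretch, an M-CAT element 70 to 65 bases upstream, a CArG box 61 to 52 bases upstream and a GATA site 42 to 37 bases upstream. The CArG box, the pattern read by serum response factor, was also present in *Actc1* at 47 to 38 bases upstream and in none of the other 8 genes, and 1.467% of the 32851 windows of the same length in the table held one. The MEF2 site, named for the muscle factors that bind it, was found in *Mybpc3* at 90 to 81 bases and in *Ttn* at 166 to 157 bases upstream, against 2.919% of all windows. A GATA site (AGATAA or TGATAA) was found in *Myl7*, *Tnnt2* and *Mybpc3* and in 16.6% of all windows. An M-CAT element (CATTCC) was found in *Myh6*, *Myl7*, *Tnnt2* and *Tnnc1* and in 12.64% of all windows. The exact hexamer TATAAA of the TATA box and the NKX2-5 site (TCAAGTG or TTAAGTG) were found in none of the 10 windows, against 12.37% and 4.673% of all windows. Looser forms of the TATA box were not searched for, and the *Tnnc1* window holds TATATAAG near its end. Both strands were searched and no 2 matches overlapped within a window. A match describes the letters only and is not a bound site.

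The sarcomere genes varied together from library to library. All 10 had their highest level in WT replicate 1, as had 18.5% of all genes tested. All 10 had their lowest level in ISM1-/- replicate 1, for which the share over all genes was not taken. Summed over the 10 genes, the level was 1584, 577 and 679 CPM in WT replicates 1 to 3 and 318, 441 and 617 CPM in ISM1-/- replicates 1 to 3. The sum in ISM1-/- replicate 3 lay between those of WT replicates 2 and 3, so the genotypes overlapped. In whole tissue, fewer cardiac muscle cells in a sample and less of these RNAs in each cell cannot be told apart.

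**Figure D1:**
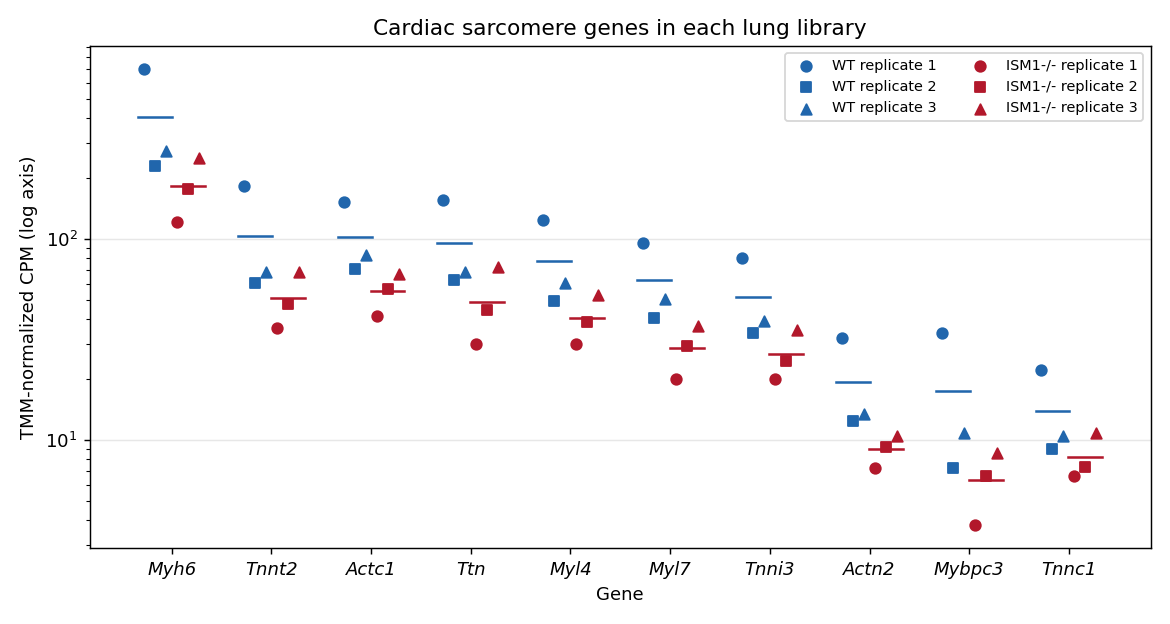
Level of each sarcomere gene in each library, in TMM-normalized CPM on a log axis, with 1 point per library (blue WT, red ISM1-/-, marker shape for the replicate) and a bar at the mean of the 3 libraries of a genotype. WT replicate 1 is the highest point and ISM1-/- replicate 1 the lowest point for all 10 genes.

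Of the thick filament genes, *Myh6*, at chr14:54941921-54966927 (GRCm38, minus strand), encodes the alpha myosin heavy chain, the motor of adult mouse heart muscle. It had 703, 232 and 274 CPM in WT and 122, 177 and 254 CPM in ISM1-/-, from counts between 5197 and 26527. ISM1-/- replicate 3 was above WT replicate 2, so the groups overlapped. The means were 403 ± 261 and 184 ± 66.1 CPM (SD, n = 3 each), and the log2 fold change of -1.13 (SE 0.39) had an adjusted p of 0.181 (quasi-likelihood test of edgeR, Benjamini-Hochberg). Without WT replicate 1 it was -0.46 (SE 0.23).

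*Myl7*, at chr11:5896637-5898782 (minus strand), encodes the atrial regulatory light chain, which sits on the neck of the myosin head. Its levels were 95.8, 40.4 and 50.4 CPM in WT and 20.04, 29.4 and 37.0 CPM in ISM1-/-. All 3 ISM1-/- libraries lay below all 3 WT libraries. *Myl7* fell from 62.2 ± 29.5 to 28.8 ± 8.50 CPM (SD, n = 3 each), with a log2 fold change of -1.11 (SE 0.30) and an adjusted p of 0.0970 in edgeR, and it was the only one of the 10 genes under the threshold of 0.1. The call did not hold without WT replicate 1, where the log2 fold change was -0.66 (SE 0.20) and the adjusted p 0.168. Of the 6 fits that left out 1 library each, only that without ISM1-/- replicate 3 kept *Myl7* under 0.1, with an adjusted p of 0.0735, and the highest was 0.280.

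*Myl4*, at chr11:104550663-104595753 (plus strand), encodes the atrial essential light chain, the partner of the regulatory light chain. It had 124, 48.9 and 60.6 CPM in WT and 30.2, 38.6 and 52.4 CPM in ISM1-/-, and ISM1-/- replicate 3 exceeded WT replicate 2. Its log2 fold change was -0.95 (SE 0.31, adjusted p = 0.165 in edgeR) and -0.44 without WT replicate 1. *Mybpc3*, at chr2:91118144-91136516 (plus strand), encodes cardiac myosin-binding protein C, which tethers the myosin heads along the thick filament. It had 34.2, 7.29 and 10.8 CPM in WT and 3.76, 6.64 and 8.60 CPM in ISM1-/-. The WT mean of 17.4 ± 14.6 CPM (SD, n = 3) rested largely on replicate 1. *Mybpc3* had the largest log2 fold change of the 10 genes, -1.46, and also the largest SE, 0.51, with an adjusted p of 0.188 in edgeR. Without WT replicate 1 its log2 fold change was -0.51.

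Among the thin filament genes, *Actc1*, at chr2:114047282-114053548 (minus strand), encodes cardiac alpha-actin, the filament itself. Its levels were 153, 71.1 and 83.1 CPM in WT and 41.6, 56.4 and 67.3 CPM in ISM1-/-. The genotypes did not overlap. The means were 102 ± 44.1 and 55.1 ± 12.9 CPM (SD, n = 3 each), with a log2 fold change of -0.89 (SE 0.26) and an adjusted p of 0.120 in edgeR. Without WT replicate 1 the log2 fold change was -0.48.

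*Tnnt2*, *Tnni3* and *Tnnc1* encode the 3 subunits of cardiac troponin, of which T anchors the complex on tropomyosin, I blocks the pull and C binds calcium. *Tnnt2*, at chr1:135836354-135852260 (plus strand), had 183, 60.3 and 68.3 CPM in WT and 35.9, 47.7 and 68.8 CPM in ISM1-/-. *Tnni3*, at chr7:4518305-4524229 (minus strand), had 80.9, 33.9 and 39.0 CPM in WT and 20.1, 24.7 and 35.4 CPM in ISM1-/-. *Tnnc1*, at chr14:31208312-31211729 (plus strand), had 22.2, 9.05 and 10.5 CPM in WT and 6.63, 7.37 and 10.8 CPM in ISM1-/-. In all 3 genes ISM1-/- replicate 3 was above WT replicate 2, and for *Tnnt2* and *Tnnc1* it was also above WT replicate 3. The log2 fold changes were -1.03 (SE 0.39), -0.94 (SE 0.31) and -0.75 (SE 0.31) for the subunits T, I and C, and edgeR's adjusted p-values were 0.220, 0.162 and 0.278. *Tnnc1* had the smallest difference of the 10 genes, and without WT replicate 1 the 3 log2 fold changes were -0.34, -0.45 and -0.24.

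The scaffold is represented by *Actn2* and *Ttn*. *Actn2*, at chr13:12269426-12340760 (minus strand), encodes alpha-actinin 2, which crosslinks actin at the Z-disc, where neighbouring sarcomeres meet. It had 32.2, 12.5 and 13.5 CPM in WT and 7.26, 9.19 and 10.5 CPM in ISM1-/-. No ISM1-/- library reached a WT library. Its log2 fold change was -1.11 (SE 0.32, adjusted p = 0.119 in edgeR) and -0.53 (SE 0.15) without WT replicate 1. *Ttn*, at chr2:76703980-76982547 (minus strand), encodes titin, the giant elastic protein that spans from the Z-disc to the middle of the sarcomere. It had 156, 62.3 and 68.2 CPM in WT and 30.1, 44.2 and 72.2 CPM in ISM1-/-. Titin was the gene in which ISM1-/- replicate 3 stood highest against its own group, at 2.40 times ISM1-/- replicate 1, and it exceeded both WT replicate 2 and WT replicate 3. The log2 fold change of *Ttn* was -0.97 (SE 0.37, adjusted p = 0.229 in edgeR) and -0.42 without WT replicate 1.

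Over the 10 genes the log2 fold changes of ISM1-/- over WT ran from -1.46 to -0.75 with a median of -1.0, while the median over all 18689 genes tested was 0.00. Called lower, meaning 2-fold or more with an adjusted p under 0.1, was 1 of the 10 genes, *Myl7*, against 53 of all genes tested (0.284%). The same gene was the only one past the adjusted p alone, which 624 genes with a lower level in ISM1-/- passed (3.34%). At an unadjusted p under 0.05 all 10 genes were lower, with p-values from 0.00440 to 0.0387, against 9.3% of all genes tested. *Myl7*, *Actc1* and *Actn2* were the 3 genes whose genotypes did not overlap, and 12.3% of all genes tested had every ISM1-/- library below every WT library. The 10 genes share their libraries and varied as a block, so they are not 10 independent observations of the genotypes.

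Leaving out WT replicate 1 brought the median log2 fold change of the 10 genes to -0.45, with a range of -0.66 to -0.24. None of the 10 genes was then called lower, against 0.183% of all genes tested. At an unadjusted p under 0.05, 5 were lower, against 7.94%, and in edgeR the adjusted p-values of the 10 genes ran from 0.130 to 0.661. DESeq2 on the same 5 libraries gave *Actn2* an adjusted p of 0.0462, at a log2 fold change of -0.53. The 3 genes without overlap were again 3 of 10, against 17.3%. The study's tool, DESeq2, called none of the 10 genes with all 6 libraries, against 0.389% of all genes tested, and 5 of the 10 had a lower level at an unadjusted p under 0.05, against 8.08%. Leaving out ISM1-/- replicate 3, the ISM1-/- library with the highest sum of the 10 genes, acted in the opposite direction. *Myl7*, *Actc1* and *Ttn*, 3 of the 10, were then called lower, against 0.549% of all genes tested, all 10 lost their overlap, against 19.4%, and the median log2 fold change was -1.27.

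**Figure D2:**
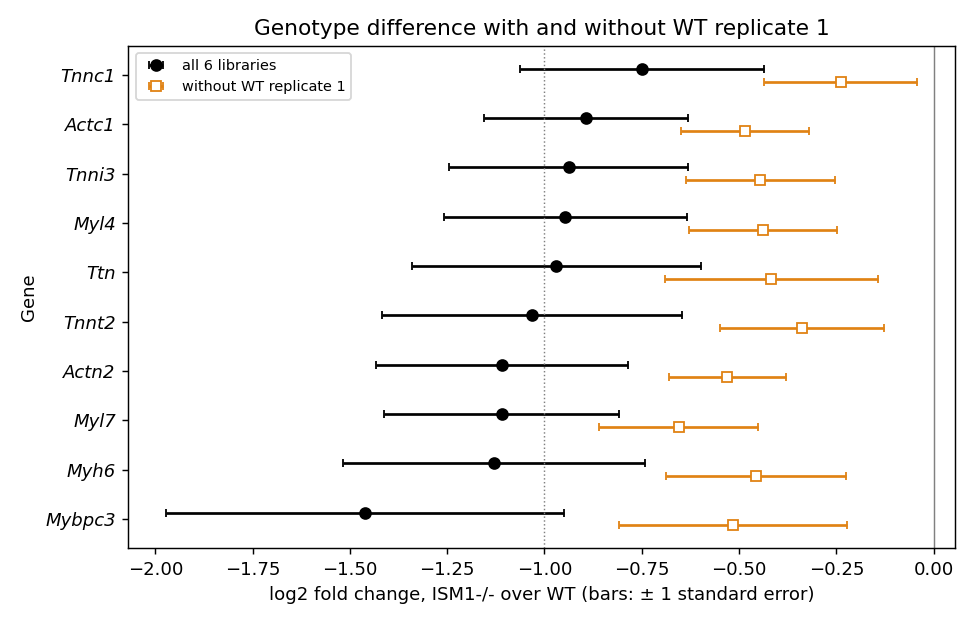
Log2 fold change of each sarcomere gene, ISM1-/- over WT, with bars of 1 standard error, from edgeR's fit to all 6 libraries (black circles) and to the 5 libraries that remain without WT replicate 1 (orange squares). A dotted line marks a 2-fold lower level, and every orange square lies closer to 0 than its black circle.

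The spread inside each genotype was of the same order as the difference between them. WT replicate 1 was between 1.98 times (*Actc1*) and 3.78 times (*Mybpc3*) the mean of WT replicates 2 and 3, with a median of 2.34 over the 10 genes. Over all genes tested the median of this ratio was 0.997, and 303 genes (1.62%) reached the lowest ratio among the 10. Being highest in WT replicate 1 was in itself common, at 3449 of all genes tested (18.5%). Within ISM1-/-, replicate 3 was 1.45 to 2.40 times replicate 1, with a median of 1.80. WT replicates 2 and 3 were closer to each other, with replicate 2 at 0.675 to 0.926 times replicate 3. Set against the mean of WT replicates 2 and 3 alone, the ISM1-/- means stood between 63.5% (*Myl7*) and 84.7% (*Tnnc1*), with a median of 73.1%.

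The make-up of the sarcomere RNA changed less than its amount. *Myh6* gave 44.4% of the counts of the 10 genes in WT replicate 1 and between 38.4% and 41.1% in the other 5 libraries. *Mybpc3* gave 2.16% in WT replicate 1 against 1.18% to 1.59% elsewhere. *Actc1* had the opposite shift, with 9.64% in WT replicate 1 against 10.9% to 13.1% elsewhere. These shares were not tested, since they compare 1 library with the rest.

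The profile of the 10 genes over the 6 libraries was used to find the genes most like them. For each gene log2(CPM + 0.1) was centred on its own mean, and the root mean square distance from the mean profile of the sarcomere genes was taken over the 6 libraries. The sarcomere genes themselves lay between 0.0624 (*Myl4*) and 0.288 (*Mybpc3*) from their mean profile. Among 15866 other genes that averaged 1 CPM or more, the 10 closest included *Gm49540* (0.0938), *Sln* (0.113), *Mb* (0.113), *Ckmt2* (0.114), *Tbx20* (0.115), *Srl* (0.117), *Txlnb* (0.125), *Ryr2* (0.127) and *Dhrs7c* (0.132). *Sln*, *Mb*, *Ckmt2*, *Tbx20* and *Ryr2* are on the lists of heart muscle genes described below. *Mb* encodes myoglobin, the oxygen store of muscle, *Ryr2* the calcium release channel of the heart, *Sln* sarcolipin, a brake on the calcium pump, and *Ckmt2* the mitochondrial creatine kinase of striated muscle. *Mb* had 90.2, 34.3 and 35.1 CPM in WT and 16.1, 21.4 and 32.1 CPM in ISM1-/-. Since these neighbours were picked for their likeness to the profile, their order over the libraries is no separate observation. None of the 10 had an adjusted p under 0.1 in edgeR.

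**Figure D3:**
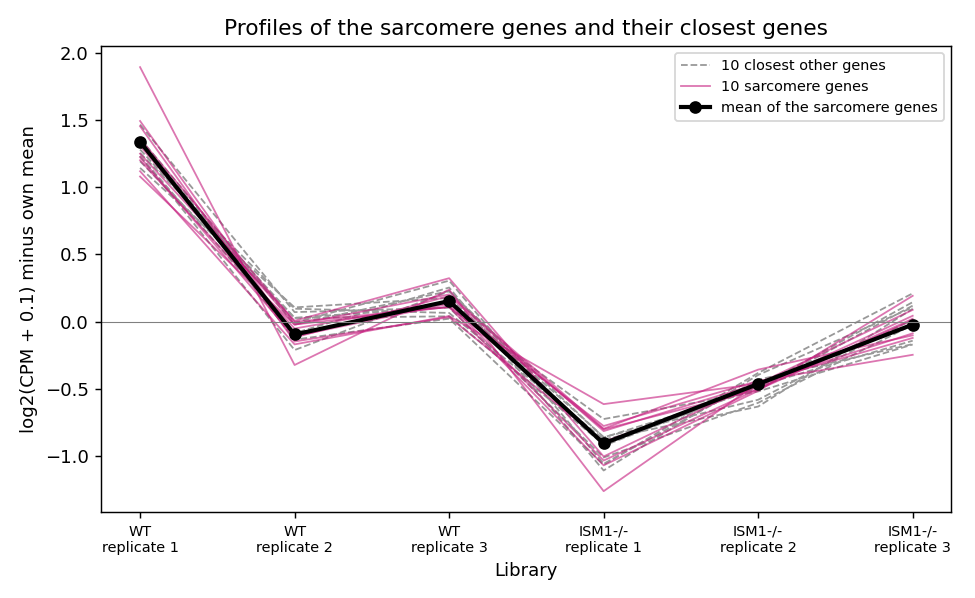
Profiles over the 6 libraries, as log2(CPM + 0.1) minus the gene's own mean, of the 10 sarcomere genes (pink), their mean (black) and the 10 closest other genes (grey, dashed). The mean profile stands at 1.34 in WT replicate 1, at -0.91 in ISM1-/- replicate 1 and at -0.02 in ISM1-/- replicate 3.

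Levels can be compared between genes only per length, and for these genes the length used decides the order. The deposited FPKM values (counts scaled by gene length and library total) divide by the mean length of all transcripts listed for a gene, a relation that held to the whole base for 16734 of 17547 genes compared (95.37%). On this scale the WT means were 193 for *Myh6*, 116 for *Actc1*, 106 for *Myl7*, 84.7 for *Tnni3*, 82.5 for *Tnnt2*, 72.3 for *Myl4*, 21.3 for *Tnnc1*, 11.6 for *Actn2*, 5.09 for *Ttn* and 4.21 for *Mybpc3*. The ranges over the 3 WT libraries overlapped between every pair of neighbours in this order except *Myl4* and *Tnnc1*. Within each WT library, however, neighbours kept this order, except *Tnni3* with *Tnnt2* and *Tnnt2* with *Myl4*. *Myh6* was divided by 2097 bases, although its longest coding transcript has 6113 bases, because 7 transcripts of very different lengths are averaged. *Ttn* was divided by 18817 bases, against 106824 bases in its longest coding transcript, the mean of 25 transcripts.

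With the longest coding transcript as the length, the order of the WT levels was *Myl7* (105 CPM per kilobase), *Tnnt2* (86.5), *Myl4* (82.6), *Actc1* (69.5), *Myh6* (65.9), *Tnni3* (56.2), *Tnnc1* (19.3), *Actn2* (6.44), *Mybpc3* (4.19) and *Ttn* (0.895). *Myh6* moved from the first to the fifth place, and *Ttn* and *Mybpc3* changed places. Thin filament actin, the atrial light chains, the heavy chain and troponins T and I stayed above troponin C, and *Actn2*, *Ttn* and *Mybpc3* stayed the 3 lowest, on both scales.

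**Figure D4:**
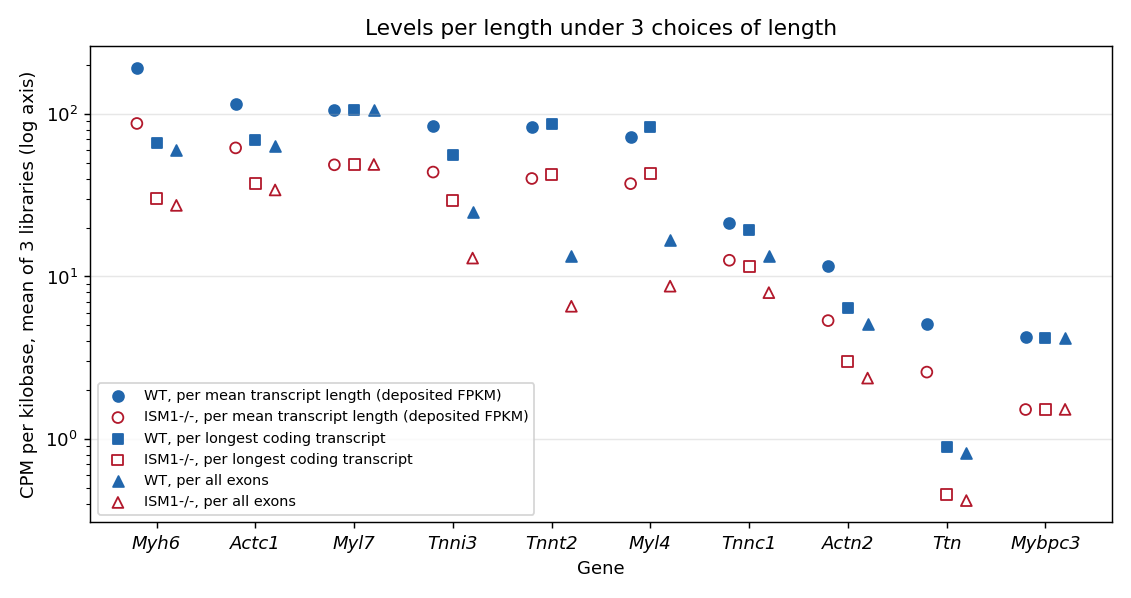
Mean level per kilobase of each sarcomere gene, as CPM per kilobase on a log axis, in WT (filled blue) and ISM1-/- (open red), with the length taken as the mean transcript length (circles, the deposited FPKM), the longest coding transcript (squares) or all exons (triangles). The 3 lowest genes are the same on every scale, Tnnt2 and Ttn span the widest ranges and Myl7, with 1 transcript of 590 bases, does not move.

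Other genes of heart muscle were read from lists that cover the rest of the sarcomere, calcium cycling and energy supply. Of 20 further sarcomere genes 17 passed the filter, and 16 of these had a lower mean in ISM1-/-, against 48.8% of all genes tested, with a median log2 fold change of -0.83 and 1 gene under an adjusted p of 0.1. That gene was *Csrp3*, the muscle LIM protein of the Z-disc, named here after its value was seen, with a log2 fold change of -0.995 and an adjusted p of 0.0937 in edgeR. The 3 most abundant genes of this list differed less. *Tpm1* (tropomyosin 1) had 458, 390 and 397 CPM in WT and 364, 394 and 420 CPM in ISM1-/-. *Tpm1* and *Myh7*, the beta myosin heavy chain, were also highest in WT replicate 1 and lowest in ISM1-/- replicate 1, but WT replicate 1 was only 1.16 and 1.14 times the mean of the other WT libraries. Their log2 fold changes were -0.08 and -0.15, and that of *Nebl* (nebulette) was 0.05. Tropomyosin 1 is made by smooth muscle and many other cells as well.

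All 10 calcium cycling genes had a lower mean in ISM1-/-, with a median log2 fold change of -0.97 and none under an adjusted p of 0.1. The most abundant were *Atp2a2*, the calcium pump SERCA2 (log2 fold change -0.47), the L-type calcium channel gene *Cacna1c* (-0.01) and *Ryr2* (-0.99). All 10 genes of muscle energy supply had a lower mean as well, with a median of -0.81. *Cox8b*, which encodes a respiratory chain subunit made in brown fat as well as in heart muscle, was the 1 gene of this list that fell past both thresholds. Which of these tissues its reads came from was not tested. It had 4.82, 2.43 and 3.10 CPM in WT and 1.62, 1.34 and 1.74 CPM in ISM1-/-. Its log2 fold change was -1.13, with an adjusted p of 0.0538 in edgeR, and -0.81 without WT replicate 1. Unlike the sarcomere genes, *Cox8b* was lowest in ISM1-/- replicate 2. The most abundant were *Mb* (-1.20), *Eno3* (-0.25) and *Hspb7* (-0.78). Without WT replicate 1 the medians of the 3 lists were -0.29, -0.41 and -0.37, and no gene of them remained under an adjusted p of 0.1. The lists for these comparisons were described by counts only and not tested as sets.

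**Figure D5:**
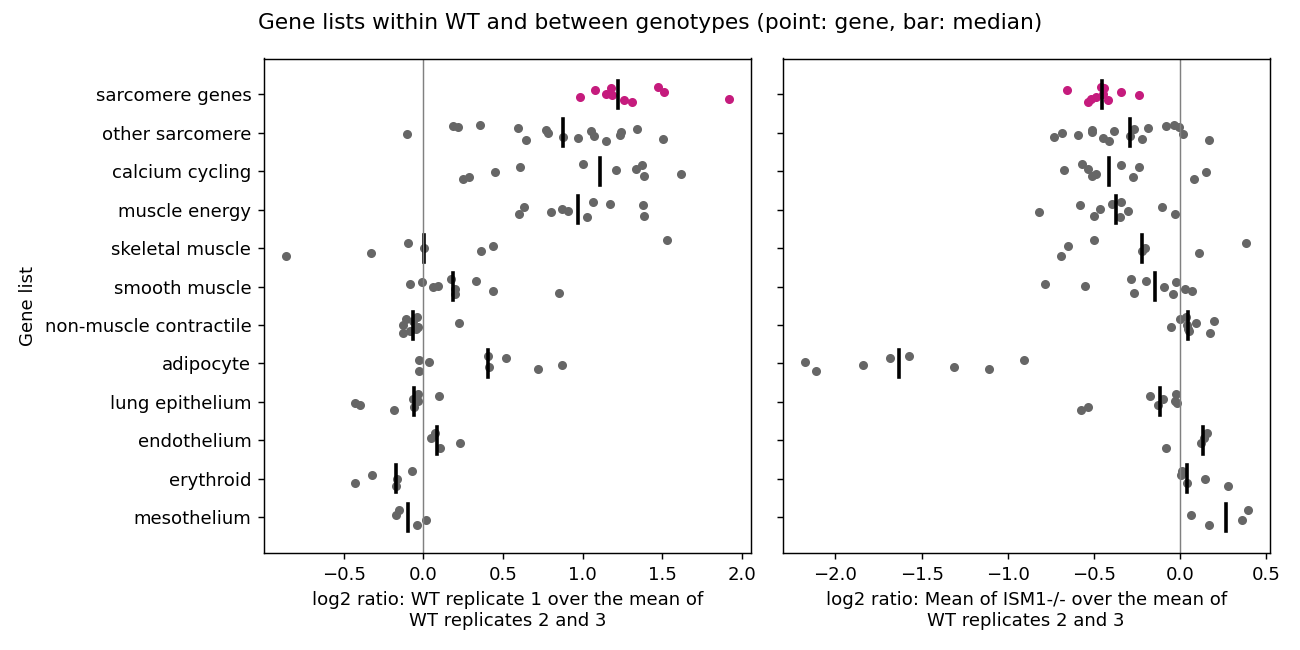
A pair of ratios per gene on a log2 scale, WT replicate 1 over the mean of WT replicates 2 and 3 (left) and the mean of ISM1-/- over the mean of WT replicates 2 and 3 (right), for the sarcomere genes (pink) and 11 other gene lists (grey), with a bar at the median of each list. The medians of the 4 upper lists, all of striated heart muscle, stand farthest to the right of 0 in the left panel, although *Nebl* stands to its left. The adipocyte list stands apart in the right panel.

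Of 8 genes of chamber identity 7 passed the filter, all 7 were highest in WT replicate 1, and none had an adjusted p under 0.1 in edgeR. The ratio of WT replicate 1 to the mean of the other WT libraries was lowest for *Hey2*, at 1.36. The log2 fold change of *Hey2* was 0.13. The ratio was 1.64 for *Gata4*, 2.35 for *Tbx20*, 5.54 for *Nkx2-5*, 14.5 for *Nppa* and 16.3 for *Nppb*, and highest for *Bmp10*. *Nppb* had only 3 and 4 counts in WT replicates 2 and 3. *Nppa*, the atrial natriuretic peptide gene, had 208 CPM in WT replicate 1, 8.64 and 19.997 CPM in WT replicates 2 and 3 and 1.90, 5.79 and 16.4 CPM in the ISM1-/- libraries. *Bmp10*, a growth factor of the atrial wall, had 643 counts in WT replicate 1 and at most 1 count in each of the other 5 libraries. The ventricular light chain gene *Myl2* had at most 9 counts and the ventricular factor *Irx4* had 0 counts in every library, which allows up to 3 counts per library and covers counting error only. Other markers were not near 0. *Myl3*, the essential light chain of ventricular and slow muscle, had 99 to 148 counts, and *Hey2*, in the heart a ventricular factor, had 133 to 190. The source of these reads was not tested. *Tbx20*, a heart transcription factor, followed the sarcomere genes with a log2 fold change of -1.07 (adjusted p = 0.139 in edgeR). The adjusted p-values of *Nppa* and *Bmp10* were 0.166 and 0.147.

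Markers of other muscle and of other tissues were set beside these values. Of 14 skeletal muscle genes 7 passed the filter, and the other 7, which include *Acta1* and *Myh4*, had at most 7 counts in any library. The ratio of WT replicate 1 to the other WT libraries had a median of 1.0 over the 7 that passed. Of these 7 genes 5 had a lower mean in ISM1-/-, with a median log2 fold change of -0.33 over the 7. *Mylpf* and *Mybpc2* had a higher mean, with log2 fold changes of 0.41 and 0.21 (adjusted p = 0.349 and 0.587 in edgeR). Among the 7 genes *Myl1* followed the sarcomere genes, with 7.05, 2.00 and 2.89 CPM in WT and 1.03, 2.05 and 2.10 CPM in ISM1-/-. Its log2 fold change was -1.20 (adjusted p = 0.211 in edgeR). *Tnnt3* alone had an adjusted p under 0.1, 0.0710 in edgeR with a log2 fold change of -0.81, named after its value was seen. Smooth muscle genes had a median ratio of 1.14 and a median log2 fold change of -0.22, with *Cnn1* (calponin 1) as the 1 gene of 10 under an adjusted p of 0.1, at 0.0466 in edgeR with a log2 fold change of -0.75, likewise named after its value was seen. The 9 contractile genes of non-muscle cells, led by *Actb*, *Myh9* and *Actg1*, had a median ratio of 0.956, a median log2 fold change of 0.07 and none under an adjusted p of 0.1.

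The 8 adipocyte markers were set beside them as well. All 8 were lower in ISM1-/- with an adjusted p under 0.1 (3.34% of all genes tested) and no overlap between genotypes (12.3%), and their summed level was 178 to 228 CPM in WT and 38.5 to 101 CPM in ISM1-/-. WT replicate 1 had the highest sum and was the highest library for 5 of the 8 genes, with a median ratio of 1.33 to the other WT libraries, and without it the median log2 fold change remained at -1.63, against -1.80 with all libraries. As for the sarcomere genes, ISM1-/- replicate 1 had the lowest sum, being lowest for 6 of the 8 genes, and ISM1-/- replicate 3 the highest of the 3 ISM1-/- libraries. Red cell genes summed to 259, 135 and 445 CPM in WT and 148, 623 and 160 CPM in ISM1-/-, an order that did not follow the sarcomere genes. Thymus markers stood out in WT replicate 3, where *Rag1* had 27.8 CPM against at most 0.47 CPM in the other libraries. The part of tissue taken along with the lung in the values of the sarcomere genes was not tested.

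Reads shared with other genes were looked for in each transcript. Of the 5964 stretches of 150 bases in the longest coding transcript of *Myh6*, 330 (5.53%) occur unchanged in *Myh7*, its neighbour on chromosome 14, and reads from them could be assigned to either gene. No such stretch of the other 9 genes occurs in another gene. *Actc1* shares runs of at most 38 bases with the actin genes *Acta1*, *Acta2* and *Actg2*. Exons of *Tnni3* overlap those of *Dnaaf3* on the same strand over 86 bases (4.17% of its exon bases), and *Dnaaf3* had 486 to 791 counts. *Dnaaf3* was itself lower in ISM1-/-, with a log2 fold change of -0.51 and an adjusted p of 0.0183 in edgeR. An antisense gene, *Gm49130*, overlaps *Myh6* over 114 bases and had 52 to 251 counts, with a log2 fold change of -1.18 (adjusted p = 0.115 in edgeR). *Gm13938* overlaps *Ttn* over 453 bases with 0 to 4 counts. *Tnnc1* lies within *Nisch* on the opposite strand but shares no exon base with it. Whether the counting used the strand is not given in the sources used here, so reads of these overlaps cannot be told apart.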

How the data were processed

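RNA was enriched for poly-A transcripts, and directional libraries of perfused whole lungs were sequenced in 3 WT and 3 ISM1-/- samples. The submitters' processing notes name CASAVA, STAR and the GRCm38/mm10 genome. The authors deposited raw read counts per gene, without normalization, and FPKM values, in which counts are divided by the library total and a gene length. The counting program, annotation release and strand setting are not given in the sources used here.

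The analysis used edgeR 4.0.16 under R 4.3.3. A gene entered when 1 library or more reached 0.5 CPM, TMM scaled the libraries, and genotypes were compared across all genes by edgeR's quasi-likelihood test without covariates, with Benjamini-Hochberg adjustment over 18689 genes. A gene was called when it changed 2-fold or more with an adjusted p under 0.1, as in the study's results. Totals were 37606133 to 42345042 counts. For the sarcomere genes, whose lowest count was 160, counting error was small beside the spread between libraries. Alternatives were DESeq2 1.42.0, RLE factors, library totals, other filters and thresholds, a robust fit, voom with sample weights in limma 3.58.1, limma on log2(FPKM + 0.1), the replicate number as a block and the omission of each library. DESeq2 without WT replicate 1 was chosen after seeing the data. The tests were also run on simulated counts in which each gene varied independently. Such counts do not cover genes that vary together from library to library, as the sarcomere genes did.

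The 10 genes and the other lists were chosen with earlier results of these data known. From the further lists only called genes, the 3 genes with the highest mean, defining markers at or near 0 and the genes closest in profile were named, with exceptions marked in the text. *Foxj1*, *Myl1*, *Mylpf*, *Mybpc2*, *Myl3*, *Hey2* and *Gata4* were likewise named after their values were seen. One gene among those closest in profile is not reported here. Transcript lengths came from GENCODE M21 and promoters from RefSeq (GRCm38.p6). By chi-square on their counts, all pairs of libraries differed by more than sampling noise.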

Additional observations from a re-analysis of the deposited data

How the results depend on the processing

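The direction of the median and of every sarcomere gene was the same under all alternatives run, and the median log2 fold change ranged from -0.82 with sample weights to -1.01 with library totals over the alternatives that kept all 6 libraries, and from -1.27 to -0.45 over the fits that left out 1 library. The number of sarcomere genes called, 1 in the reported fit, was 0 with DESeq2, with a mean above 2 CPM, with the robust fit, with sample weights, with FPKM in limma, at an adjusted p under 0.05 and with DESeq2 without WT replicate 1. It was 5 without a low-count filter, a fit of 31946 genes in which all 10 had an adjusted p under 0.1 (3.34% of all genes in that direction), and 0 to 3 over the fits that left out 1 library. Why the calls moved with the filter was not tested. With sample weights 6 of the 10 had an adjusted p under 0.1 (6.65% of all genes in that direction), *Myl7* with 0.0429, each at under a 2-fold change. DESeq2 without WT replicate 1 had 1 such gene (3.7%), *Actn2*, with an adjusted p of 0.0462 and a log2 fold change of -0.53. *Myl7* had an adjusted p of 0.180 in DESeq2, 0.105 with a mean above 2 CPM, 0.358 in the robust fit, in which none of the 10 had an unadjusted p under 0.05, and 0.221 with FPKM. Genes higher in ISM1-/-, 53 in the reported fit, numbered 18 with a mean above 2 CPM, 113 without a filter, 119 with sample weights, 25 at an adjusted p under 0.05, 258 without a fold minimum and 17 to 86 with 1 library left out. Genes lower, also 53, numbered 19, 180, 106, 26 and 624 in the same order, 31 with FPKM in limma, 28 with DESeq2 without WT replicate 1 and 12 to 102 with 1 library left out.

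Libraries with the same replicate number come from different animals, and their deviations from the group means correlated at -0.037, 0.030 and 0.007. Pairs with different numbers correlated at -0.063 to 0.046. Deviations within a genotype cancel out over its 3 libraries, so these correlations cannot decide whether the numbers pair libraries. With the replicate block 0 sarcomere genes were called, the adjusted p of *Myl7* being 0.105, 68 genes were higher and 62 lower. Depth does not limit the sarcomere genes, whose lowest count was 160, but 3 libraries per genotype do. Leaving out any 1 library moved the number of calls from 1, to 3 without ISM1-/- replicate 3 and to 0 without any of the others. Sample weights were 0.681 for WT replicate 1 and 0.342 for ISM1-/- replicate 3.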
